A study of Mus musculus with 7 samples.

Results

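The genes described are 10 members of the transforming growth factor beta (TGF-beta) pathway, measured by RNA-seq in CD4+CD25+ cells sorted by flow cytometry from mouse liver. These surface proteins mark most regulatory T cells (Treg). The 10 genes are the ligands Tgfb1 and Tgfb3, the receptors Tgfbr1 and Tgfbr2, the signal carriers Smad2, Smad3 and Smad4, the inhibitor Smad7 and the corepressors Ski and Skil. The names were given as a fixed list and looked up in the count table by Ensembl ID, which found 10 of 10 among 53465 IDs. The members were chosen by their place in the pathway with earlier results of the same 7 libraries in view, among them the counts and fold change of Tgfb1 in the knockout, so their values are given as a description and support no claim beyond themselves. The KO_MCD group holds CD73 knockout mice fed for 4 weeks a diet without methionine and choline (3 libraries). This diet is a common mouse model of steatohepatitis. The WT_MCD group holds wild type C57BL/6 mice on the same deficient diet (2 libraries), and the WT_NCD group holds wild type mice kept on normal control food (2 libraries). CD73, the product of Nt5e, makes adenosine from AMP outside the cell. The labels give neither the part of Nt5e that is deleted nor the age, sex or number of mice behind a library, and a knockout group on the control diet was not analysed here. The question behind the series is what CD73 on Treg does in fatty liver disease.

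TGF-beta is secreted in a latent form, bound to its own propeptide, and has to be released before it can act. The free ligand binds the type II receptor, Tgfbr2, which phosphorylates the type I receptor, Tgfbr1, and this kinase in turn phosphorylates Smad2 and Smad3. These join Smad4 and enter the nucleus, where Ski and Skil hold their target genes in check, while Smad7 blocks the receptor and is itself induced by the pathway. In T cells TGF-beta is known for restraining activation, for inducing Foxp3 and for inducing the integrin CD103.

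The 250 bases upstream of the RefSeq start are shown for Tgfb1, the member that differed most between knockout and wild type, and for Tgfbr2, the receptor that was higher in every library of the deficient diet. Both come from RefSeq on build GRCm38.p6, and capitals mark a match to CAGAC, the core letters of the SMAD box. The Tgfb1 window is chr7:25686752-25687001 on the plus strand, and the Tgfbr2 window is chr9:116175364-116175613 on the minus strand.
Tgfb1: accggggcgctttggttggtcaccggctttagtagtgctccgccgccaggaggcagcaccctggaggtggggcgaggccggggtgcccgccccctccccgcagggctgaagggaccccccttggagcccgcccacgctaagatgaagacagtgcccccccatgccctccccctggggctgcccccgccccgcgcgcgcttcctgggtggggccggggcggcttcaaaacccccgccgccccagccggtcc
Tgfbr2: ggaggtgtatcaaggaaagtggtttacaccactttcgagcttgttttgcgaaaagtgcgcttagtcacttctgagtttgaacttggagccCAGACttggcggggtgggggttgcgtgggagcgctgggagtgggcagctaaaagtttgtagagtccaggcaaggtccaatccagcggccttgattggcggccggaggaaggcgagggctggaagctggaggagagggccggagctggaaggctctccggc
The searched motifs were CAGAC, its palindromic SMAD form GTCTAGAC, and the AP-1 form TGANTCA, each on both strands, and CAGAC does not lie within either of the other two. CAGAC was found in 42.2% of 32851 mouse promoters of this length, GTCTAGAC in 0.167% and TGANTCA in 6.75%. The Tgfb1 window held none of the 3 motifs and had 75.2% G and C, against a median of 52.4% over all promoters. The Tgfbr2 window held CAGAC once, 160 bases upstream of the start, with 58.4% G and C. The windows of Smad3 and Ski held none of the motifs, and of a pair of Tgfbr1 windows 1 held CAGAC once. A match of letters does not show a bound site, and the windows of the other 5 members were not used here.

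The libraries held 19731501 to 24398738 counted reads each. The filter on low counts left 14784 genes, all 10 members among them. Levels are given in CPM, read counts scaled to library size, and fold changes come from edgeR fitted over all 14784 genes with 1 coefficient per group. The targeted gene Nt5e had 5.88, 14.5 and 6.43 CPM in KO_MCD and 177 and 87.6 CPM in WT_MCD, against 243 and 241 CPM in WT_NCD, so the knockout libraries were the lowest. Foxp3, the lineage factor of Treg, had 167 to 218 CPM in KO_MCD and 141 and 108 CPM in WT_MCD, against 181 and 287 CPM in WT_NCD, and all 10 Treg and all 10 pan T cell markers examined were counted in every library. RNA of other cells was present too. The macrophage gene Lyz2 had 6151 to 11324 CPM in KO_MCD and 1837 and 26675 CPM in WT_MCD, against 7757 and 845 CPM in WT_NCD. The 2 libraries of each wild type group thus lay much farther apart in macrophage RNA than the knockout libraries did. In such bulk samples fewer cells of a type and less RNA per cell cannot be told apart. Replicates are not said to come from separate animals, so a p-value measures the spread between these samples, which may be technical.

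No gene passed an edgeR adjusted p of 0.05 (Benjamini-Hochberg over all genes) in any comparison, which is 0% of the 14784 tested, and so no member did. In KO_MCD against WT_MCD 480 genes (3.25%) had an unadjusted edgeR p under 0.05, DESeq2 called 50 (0.34%) and limma voom 0. In WT_MCD against WT_NCD the counts were 887 (6%), 314 (2.14%) and 0, and in KO_MCD against WT_NCD they were 1326 (8.97%), 562 (4.07%) and 0. Members with an unadjusted edgeR p under 0.05 were Tgfb1 in the first comparison, Tgfbr2 and Smad4 in the second, and Tgfb1 and Tgfbr2 in the third. Among the members, edgeR adjusted p-values ran from 0.203 to 1. In KO_MCD against WT_MCD 3 of 10 members had groups whose libraries do not overlap, Tgfb1 and Smad4 higher and Smad3 lower, against a background of 18% of all genes tested (8.37% higher and 9.66% lower). In WT_MCD against WT_NCD it was 4 of 10, Tgfb1, Tgfbr2 and Smad3 higher and Smad4 lower, against 31.6% (16.8% higher and 14.8% lower). In KO_MCD against WT_NCD it was 5 of 10, both ligands and both receptors higher and Smad4 lower, against 26.1% (13.4% higher and 12.8% lower). Since values of these genes were known when the list was made, nothing is read from these shares. The median fitted log2 fold change of the members was 0.0047, 0.55 and 0.35 in the 3 comparisons in that order, beside -0.032, 0.045 and 0.056 over all genes tested. The 3 comparisons share libraries pairwise, and KO_MCD against WT_NCD differs in diet and genotype together.

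**Figure D1:**
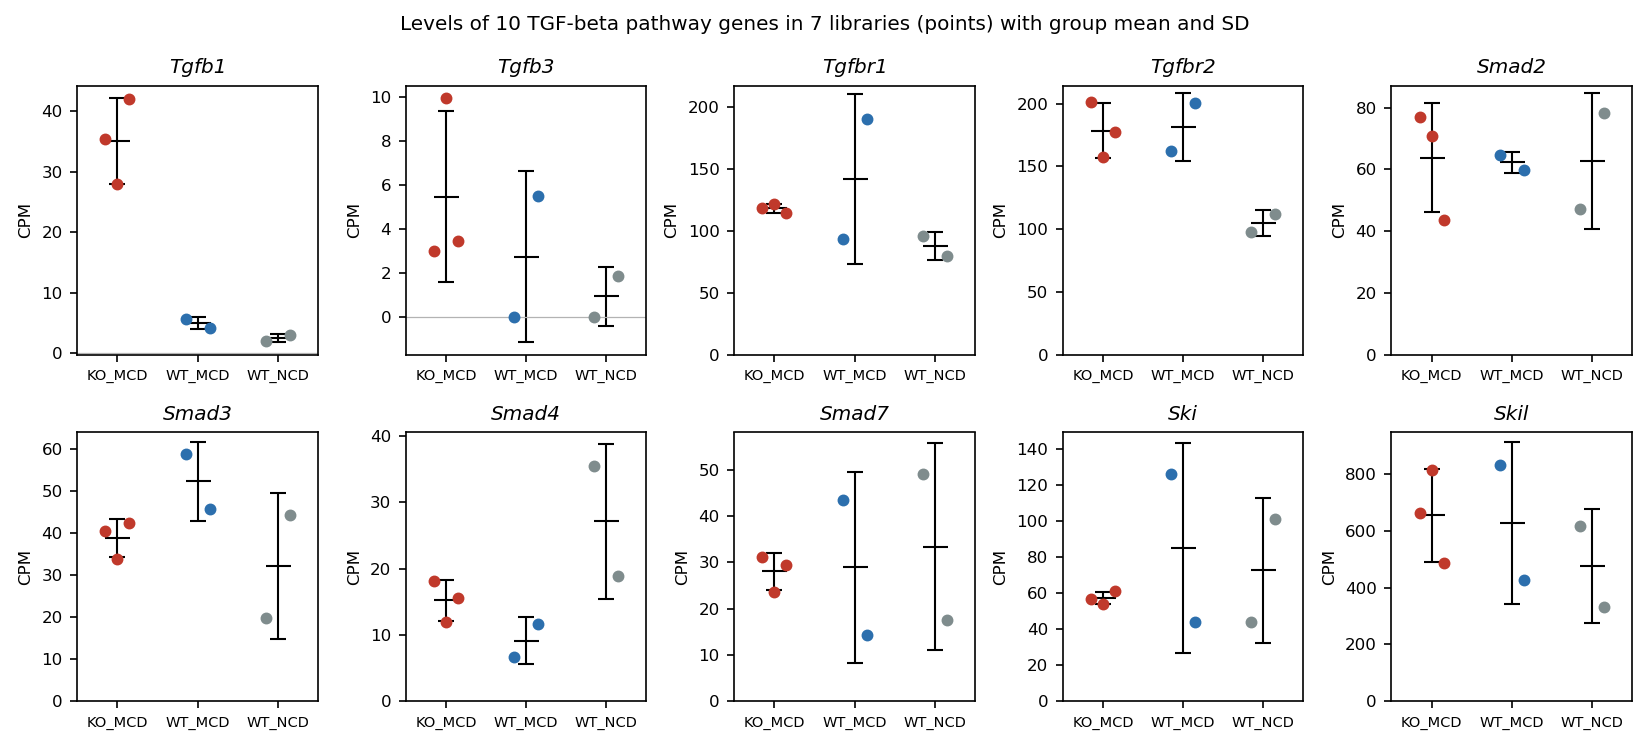
CPM of each of the 10 genes (vertical axis, linear from 0) in the 3 KO_MCD, 2 WT_MCD and 2 WT_NCD libraries, with points for libraries and bars for the group mean and SD. Tgfb1 in KO_MCD, at 27.9 to 42.0 CPM, stands clear of the 4 wild type libraries, Tgfbr2 stands lowest in WT_NCD, and the wild type libraries of Smad7, Ski and Skil lie far apart within their groups.

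Tgfb1, the main TGF-beta ligand of lymphocytes (ENSMUSG00000002603, chromosome 7, 25687002 to 25705077, plus strand, GRCm38), was the member with the widest difference between knockout and wild type. It had 35.3, 27.9 and 42.0 CPM in KO_MCD (727, 616 and 881 reads), 5.67 and 4.25 CPM in WT_MCD (122 and 81 reads) and 2.02 and 2.96 CPM in WT_NCD (40 and 69 reads). The 3 knockout libraries were above all 4 wild type libraries, and within the wild type both libraries of the deficient diet were above both of the control diet. The mean was 7.07 times as high in KO_MCD as in WT_MCD, and the lowest KO_MCD library was 4.92 times as high as the highest WT_MCD library. The fitted log2 fold change was 2.82 (SE 0.53) in KO_MCD against WT_MCD, 0.99 (SE 0.53) in WT_MCD against WT_NCD and 3.81 (SE 0.56) in KO_MCD against WT_NCD. With each of the 7 libraries left out in turn the first stayed between 2.63 and 3.08, the second between 0.74 and 1.30 and the third between 3.56 and 4.12. The methods differed on Tgfb1. The edgeR fit called it in no comparison, with its lowest adjusted p of 0.203 in KO_MCD against WT_NCD, and limma voom did not call it either. DESeq2 called it against WT_MCD (adjusted p = 0.000242) and, in the knockout, against WT_NCD (adjusted p = 2.5e-09). Its values were known when the list was made. No annotated gene overlaps Tgfb1. Its wild type levels rest on 40 to 122 reads a library.

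Tgfb3, a second ligand of the same receptors (ENSMUSG00000021253, chromosome 12, 86056745 to 86079041, minus strand), was the scarcest member. It had 3.01, 9.97 and 3.48 CPM in KO_MCD and 0 and 5.51 CPM in WT_MCD, against 0 and 1.89 CPM in WT_NCD. Reads were found in all 3 knockout libraries and in 1 library of each wild type group. The libraries without a read, WT_MCD replicate 1 and WT_NCD replicate 1, allow up to 0.139 and 0.152 CPM (3 counts, counting error only). KO_MCD libraries lay on both sides of the higher WT_MCD library, and the fitted log2 fold change of 0.99 carried an SE of 2.37. Leaving out WT_MCD replicate 1 gave 0.031, and leaving out replicate 2 left the wild type on the deficient diet with no reads at all. In WT_MCD against WT_NCD it was 1.53 (SE 2.57), and without WT_MCD replicate 2 its sign turned. All 3 knockout libraries were above both WT_NCD libraries, with 2.53 (SE 2.55). The gene shares 4.82% and 7.6% of its exon bases with 2 annotated transcripts of the other strand, Gm37804 and Gm48008, and whether the counting used strand is not stated, so reads of these cannot be told apart from its own.

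Tgfbr2, the ligand-binding kinase (ENSMUSG00000032440, chromosome 9, 116084293 to 116175360, minus strand), stood apart by diet. It had 201, 157 and 177 CPM in KO_MCD and 162 and 200.5 CPM in WT_MCD, against 97.7 and 112 CPM in WT_NCD. All 5 libraries of the deficient diet were above both libraries of the control diet, while KO_MCD and WT_MCD overlapped. The fitted log2 fold change was 0.79 (SE 0.29) in WT_MCD against WT_NCD and 0.77 (SE 0.27) in KO_MCD against WT_NCD, and between 0.63 and 0.92 in both with any 1 library left out. In KO_MCD against WT_MCD it was -0.024 (SE 0.26), a difference within the spread of the libraries, and its sign turned without KO_MCD replicate 2 (0.060) or WT_MCD replicate 2 (0.13). Summed markers of some other cells lay in the same order of diets. These were dendritic cells, natural killer and CD8 T cells, and B and plasma cells, whose sums are given further below. The sums for macrophages and Kupffer cells and for monocytes and neutrophils did not. The 7 dendritic cell markers summed to 467, 242 and 854 CPM in KO_MCD and 292 and 408 CPM in WT_MCD, against 231 and 165 CPM in WT_NCD. Of these 7, 6 were fitted higher and 1 lower in WT_MCD than in WT_NCD. In KO_MCD against WT_NCD 5 were higher and 2 lower. The 8 markers of natural killer and CD8 T cells summed to 274, 228 and 305 CPM in KO_MCD and 226 and 458 CPM in WT_MCD, against 98.1 and 109.3 CPM in WT_NCD. The part of any of these cells in the Tgfbr2 level was not tested.

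Tgfbr1, the signalling kinase that Tgfbr2 activates (ENSMUSG00000007613, chromosome 4, 47353222 to 47414931, plus strand), had 118, 122 and 114 CPM in KO_MCD and 93.2 and 189.8 CPM in WT_MCD, against 95.3 and 79.5 CPM in WT_NCD. The 3 knockout libraries lay close together and above both control diet libraries, whereas 1 WT_MCD library was below and the other above all 3. That high library, WT_MCD replicate 2, also had the most macrophage RNA, with a summed level of 12 macrophage and Kupffer cell markers of 32876 CPM against 2416 CPM in replicate 1, and the part of those cells in the receptor level was not tested. The log2 fold change of KO_MCD against WT_MCD was -0.26 (SE 0.34), with 0.34 when WT_MCD replicate 2 was left out and -0.65 when replicate 1 was. In WT_MCD against WT_NCD it was 0.70 (SE 0.38), from 0.095 without that macrophage-rich library to 1.10 without WT_MCD replicate 1. Against WT_NCD the knockout stood at 0.43 (SE 0.35).

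Of the receptor-activated SMADs, Smad3 (ENSMUSG00000032402, chromosome 9, 63646767 to 63757994) had 40.5, 33.8 and 42.3 CPM in KO_MCD and 58.9 and 45.7 CPM in WT_MCD, against 19.8 and 44.4 CPM in WT_NCD. Both WT_MCD libraries were above every other library, by a narrow margin over WT_NCD replicate 2. The log2 fold change was -0.43 (SE 0.42) in KO_MCD against WT_MCD, from -0.60 without WT_MCD replicate 2 to -0.20 without WT_MCD replicate 1. It was 0.70 (SE 0.47) in WT_MCD against WT_NCD, from 0.24 without WT_NCD replicate 1 to 1.41 without WT_NCD replicate 2. Smad2, its close relative (ENSMUSG00000024563, chromosome 18, 76241580 to 76310963), had 77.0, 70.8 and 43.6 CPM in KO_MCD and 64.8 and 60.0 CPM in WT_MCD, against 47.1 and 78.4 CPM in WT_NCD. Its 3 group means lay between 62.4 and 63.8 CPM, and its libraries overlapped in every comparison. The fitted log2 fold changes of Smad2 were 0.033 (SE 0.38), -0.0095 (SE 0.41) and 0.024 (SE 0.38) in KO_MCD against WT_MCD, WT_MCD against WT_NCD and KO_MCD against WT_NCD. Each SE was far larger than its fold change, and the sign of each turned with a library left out, in KO_MCD against WT_MCD with either KO_MCD replicate 1 or 2 or WT_MCD replicate 2.

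Smad4, the shared partner that carries the activated SMADs to their targets (ENSMUSG00000024515, chromosome 18, 73639009 to 73703780), was lowest in WT_MCD and highest in WT_NCD. It had 18.1, 11.9 and 15.6 CPM in KO_MCD and 6.60 and 11.6 CPM in WT_MCD, against 35.5 and 18.9 CPM in WT_NCD. The groups did not overlap in any comparison, but by narrow margins, since the lowest KO_MCD library was next to the higher WT_MCD library and the highest KO_MCD library next to the lower WT_NCD library. The log2 fold change was 0.74 (SE 0.55) in KO_MCD against WT_MCD, from 0.43 without WT_MCD replicate 1 to 1.20 without WT_MCD replicate 2. In WT_MCD against WT_NCD it was -1.58 (SE 0.60), from -2.04 without WT_MCD replicate 2 to -1.05 without WT_NCD replicate 1, and in KO_MCD against WT_NCD -0.84 (SE 0.53), from -1.22 without WT_NCD replicate 2 to -0.32 without WT_NCD replicate 1. Its sign did not turn with any 1 library left out.

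Smad7, the inhibitory SMAD that the pathway induces (ENSMUSG00000025880, chromosome 18, 75367529 to 75395935), had 31.3, 23.6 and 29.4 CPM in KO_MCD and 43.6 and 14.3 CPM in WT_MCD, against 49.2 and 17.7 CPM in WT_NCD. In both wild type groups replicate 1 stood far above replicate 2, and the 3 knockout libraries lay between them. Its groups overlapped in every comparison. The fitted log2 fold change was -0.044 (SE 0.61) in KO_MCD against WT_MCD and -0.21 (SE 0.67) in WT_MCD against WT_NCD, where the sign of the first turned without KO_MCD replicate 2 or WT_MCD replicate 1, and that of the second without WT_MCD replicate 2 or WT_NCD replicate 1.

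The corepressor Skil, also known as SnoN (ENSMUSG00000027660, chromosome 3, 31095058 to 31122577), was the most abundant member. It had 666, 814 and 488 CPM in KO_MCD and 832 and 427 CPM in WT_MCD, against 619 and 333 CPM in WT_NCD. Replicate 1 was again above replicate 2 in both wild type groups, and the knockout libraries lay within the WT_MCD range. The log2 fold change was 0.059 (SE 0.42) in KO_MCD against WT_MCD and 0.40 (SE 0.46) in WT_MCD against WT_NCD. The sign of the first turned without KO_MCD replicate 2 or WT_MCD replicate 2, and that of the second without WT_MCD replicate 1. Ski, the other corepressor (ENSMUSG00000029050, chromosome 4, 155154075 to 155222592), had 56.8, 54.0 and 61.0 CPM in KO_MCD and 126 and 43.7 CPM in WT_MCD, against 44.0 and 101 CPM in WT_NCD. It was high in WT_MCD replicate 1 and in WT_NCD replicate 2, so that in WT_NCD the library high in Ski was the one low in Skil. The log2 fold change of Ski was -0.57 (SE 0.52) in KO_MCD against WT_MCD, from -1.14 without WT_MCD replicate 2 to 0.43 without WT_MCD replicate 1. Per kilobase of exon Skil was 6.72, 8.66 and 4.59 times Ski in KO_MCD, 3.78 and 5.60 times in WT_MCD, and 8.06 and 1.89 times in WT_NCD.

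**Figure D2:**
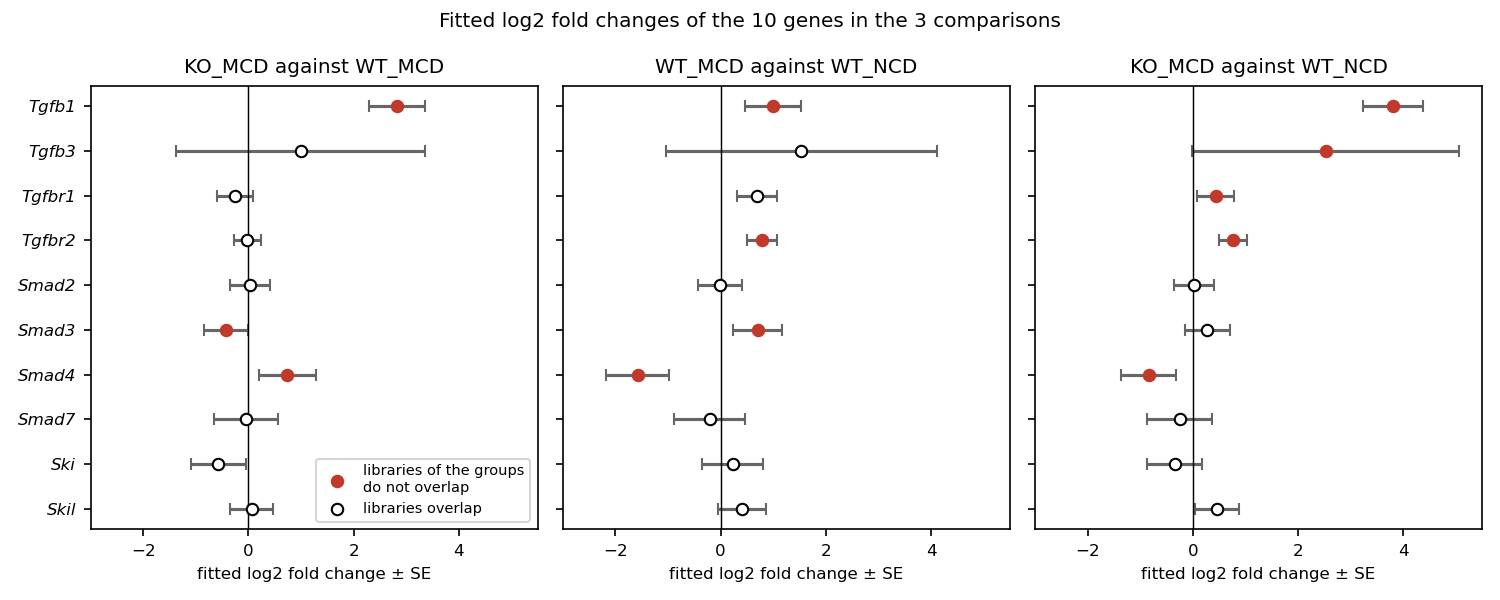
Fitted log2 fold change (horizontal axis) with its SE for the 10 genes in the 3 comparisons. Filled points are genes whose libraries do not overlap between the groups, and open points are genes whose libraries overlap. Tgfb1 at 2.82 and 3.81 lies farthest from 0 in both knockout comparisons, and the wide bars of Tgfb3 come with 2 libraries at 0 reads.

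The order of the members comes from levels per kilobase of exon (RPKM, on the scaled library sizes), since raw CPM grows with gene length. Skil was first in all 3 groups, at 67.6 ± 16.9 RPKM in KO_MCD (SD, n = 3), against 64.9 ± 29.6 in WT_MCD and 49.1 ± 20.8 in WT_NCD (SD, n = 2 each), and none of its libraries overlapped with those of the next gene. In KO_MCD there followed Tgfbr2 at 21.8, Tgfbr1 at 18.1 and Ski at 10.3 RPKM, each clear of the next. Smad2, Smad3, Tgfb1 and Smad7 then lay between 6.21 and 7.27 RPKM, and each neighbour in that run overlapped with the next. Smad4 at 4.10 and Tgfb3 at 1.62 RPKM closed the order. In WT_MCD Tgfbr2, Tgfbr1, Ski and Smad3 ran from 22.2 down to 9.44 RPKM with overlapping neighbours, followed by Smad2 at 7.10, Smad7 at 6.40 and Smad4 at 2.45 RPKM. In WT_NCD Tgfbr1, Ski and Tgfbr2, at 12.8 to 13.4 RPKM, overlapped, and so did Smad7, Smad4, Smad2 and Smad3, at 5.80 to 7.40 RPKM. Tgfb1 stood 7th of 10 in KO_MCD with 6.95 ± 1.40 RPKM (SD, n = 3). That place depends on the length used, since by the longest transcript Tgfb1 had 13.6 RPKM in KO_MCD, above Ski at 10.4 RPKM. In both wild type groups Tgfb1 stood 9th by exon length, with 0.984 ± 0.199 RPKM in WT_MCD and 0.495 ± 0.132 RPKM in WT_NCD (SD, n = 2 each). Tgfb3 was last in every group, and in the wild type groups its libraries overlapped with those of Tgfb1.

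**Figure D3:**
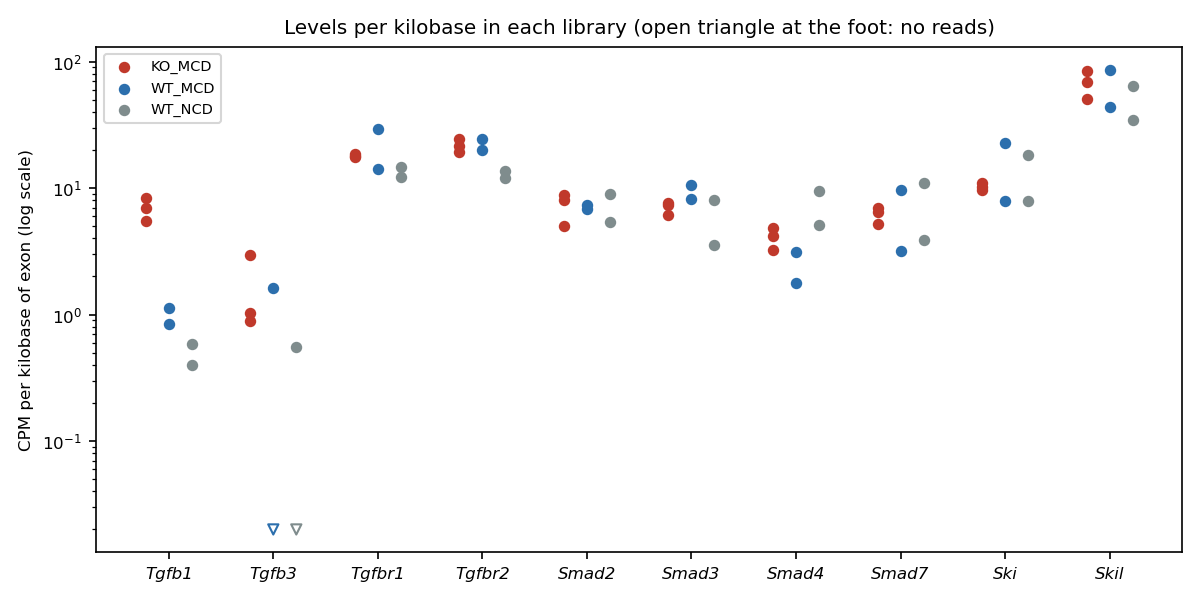
Level per kilobase of exon (vertical axis, log scale) of each gene in every library, with KO_MCD, WT_MCD and WT_NCD side by side. Skil lies highest in all groups and the receptors come next, while Tgfb1 in KO_MCD lies among the SMADs and in the wild type groups near Tgfb3; open triangles at the foot are libraries with no read of Tgfb3.

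The spread within groups was read as the coefficient of variation over libraries. Its median over the 10 members was 17.2% in KO_MCD, 42.2% in WT_MCD and 42.7% in WT_NCD, and over 9708 genes averaging 5 CPM or more it was 30.4%, 28.4% and 30.6% in the same order. With 3 libraries against 2 in each wild type group these are descriptions and were not tested. Single members went against the order of the medians, Smad2 with 27.8% in KO_MCD against 5.44% in WT_MCD, and Tgfbr2 with 12.2% in KO_MCD against 9.57% in WT_NCD. In KO_MCD the highest library of Tgfbr1 was 1.07 times the lowest, and that of Ski 1.13 times. In WT_MCD the same ratio was 2.04 for Tgfbr1, 2.89 for Ski and 3.04 for Smad7. It was widest in the knockout for Tgfb1, by a small margin, for Tgfbr2 (1.28 in KO_MCD and 1.23 in WT_MCD, against 1.15 in WT_NCD) and for Smad2 (1.77 in KO_MCD and 1.08 in WT_MCD, against 1.66 in WT_NCD). Ratios between members are set per kilobase of exon. On that scale Tgfbr2 was 1.03 to 1.36 times Tgfbr1 in KO_MCD, 1.39 and 0.843 times in WT_MCD, and 0.819 and 1.12 times in WT_NCD. Smad7 was 0.852 to 0.947 times Smad3 in KO_MCD, 0.907 and 0.384 times in WT_MCD, and 3.04 and 0.487 times in WT_NCD.

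Markers of other cells were set beside Tgfb1, since it is also made by myeloid cells, B cells and platelets. Per 1000 reads of 10 pan T cell markers, Tgfb1 had 7.11, 4.82 and 6.53 reads in KO_MCD, 0.674 and 0.991 reads in WT_MCD, and 0.279 and 0.278 reads in WT_NCD, so the order of the groups was the same on this scale. B and plasma cell markers were also highest in the knockout in 2 of its 3 libraries. Their summed level was 823, 700.1 and 332 CPM in KO_MCD and 308 and 430 CPM in WT_MCD, against 284 and 119.7 CPM in WT_NCD, and 5 of 6 were fitted higher in KO_MCD than in WT_MCD. The plasma cell gene Jchain was at 0 in KO_MCD replicates 1 and 2. The knockout library with the most Tgfb1, replicate 3 with 42.0 CPM, had the fewest B cell marker reads of its group, at a sum between those of the WT_MCD libraries. Summed macrophage and Kupffer cell markers were 12697, 9491 and 7408 CPM in KO_MCD and 2416 and 32876 CPM in WT_MCD, against 10792 and 1179 CPM in WT_NCD. The WT_MCD libraries, far apart in these markers, had 5.67 and 4.25 CPM of Tgfb1, with the lower value in the library rich in macrophage RNA. Summed dendritic cell markers, given above beside Tgfbr2, lay in the same order as Tgfb1 among the knockout libraries, with 854 CPM in replicate 3, 467 CPM in replicate 1 and 242 CPM in replicate 2, and in the opposite order within each wild type group. Natural killer and CD8 T cell markers did the same among the knockout libraries. Of 7 platelet and erythroid markers 3 to 4 were counted in the knockout libraries. The platelet gene Pf4 had 2.23, 0.725 and 5.19 CPM in KO_MCD and 1.26 and 12.8 CPM in WT_MCD, against 6.98 and 1.89 CPM in WT_NCD. Ppbp and Itga2b were at 0 in the knockout. In the wild type Ppbp had 0.210 CPM in WT_MCD replicate 2 and 0.558 CPM in WT_NCD replicate 2. Itga2b had 2.21 CPM in WT_MCD replicate 2, and both genes were at 0 in the remaining wild type libraries. The summed level of the list was 5.39 to 38.7 CPM in KO_MCD and 26.9 and 340.4 CPM in WT_MCD, against 58.1 and 53.7 CPM in WT_NCD. The part of any of these cells in the Tgfb1 level was not tested.

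**Figure D4:**
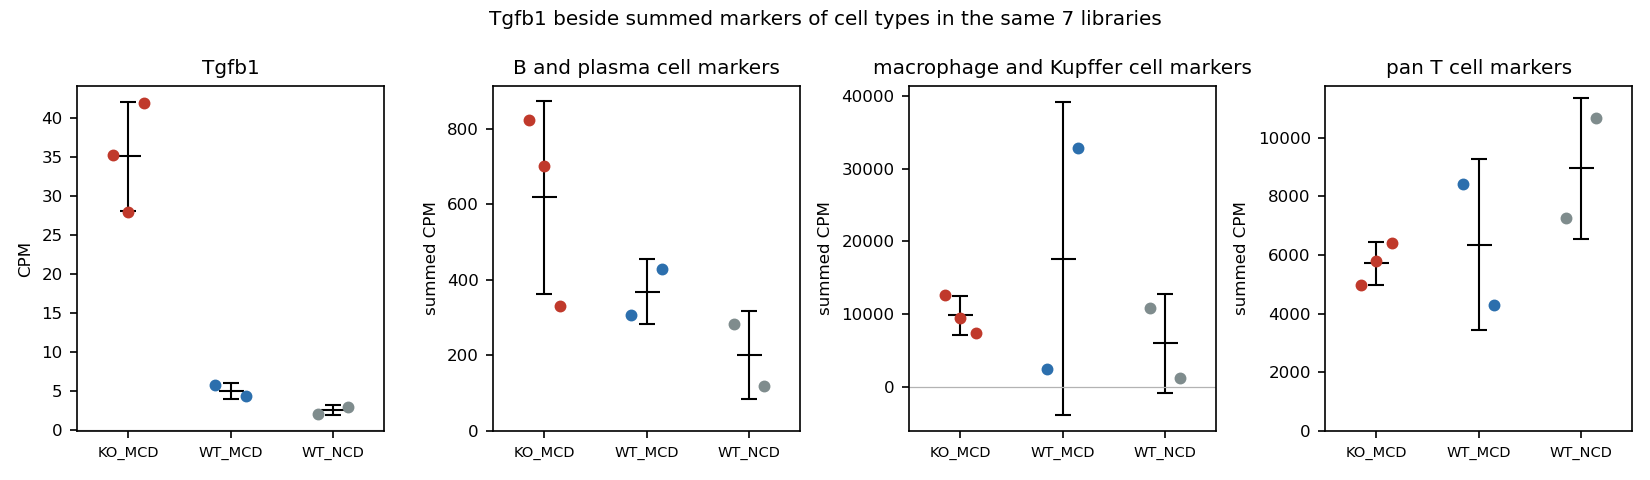
Tgfb1 (CPM) and the summed CPM of B and plasma cell, macrophage and Kupffer cell, and pan T cell markers in the same 7 libraries, by group, with mean and SD. Tgfb1 separates KO_MCD from both wild type groups, whereas each marker sum of KO_MCD overlaps with at least 1 wild type group.

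The genes beside Tgfb1 on chromosome 7 were read as well. Of 14 other annotated genes within 100 kb, 10 averaged 1 CPM or more. B9d2, a gene of the ciliary transition zone that ends 443 bases before Tgfb1 on the same strand, had 28.9, 31.8 and 35.0 CPM in KO_MCD and 52.0 and 52.0 CPM in WT_MCD, against 54.8 and 34.4 CPM in WT_NCD. It was thus lower in KO_MCD than in WT_MCD in every library, with a log2 fold change of -0.70 (SE 0.34). Ccdc97, the next gene on the other side at 6028 bases, had 0.19 (SE 0.49). Cyp2s1, a cytochrome P450 gene that lies 97397 bases away, had 3.11, 7.20 and 12.6 CPM in KO_MCD and 51.0 and 41.2 CPM in WT_MCD, against 37.7 and 37.8 CPM in WT_NCD. Its knockout libraries were all below the 4 wild type libraries, the opposite direction to Tgfb1, at -2.59 (SE 0.58) on the log2 scale against WT_MCD and -2.30 (SE 0.58) against WT_NCD. The edgeR adjusted p was 1 and 0.359, and DESeq2 called Cyp2s1 in both (adjusted p = 0.0259 and 0.0175). The other 7 genes had log2 fold changes between -0.29 and 0.48 in KO_MCD against WT_MCD, and their libraries overlapped. Smad3 and Tgfbr2 lie on chromosome 9, as does the targeted gene Nt5e.

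**Figure D5:**
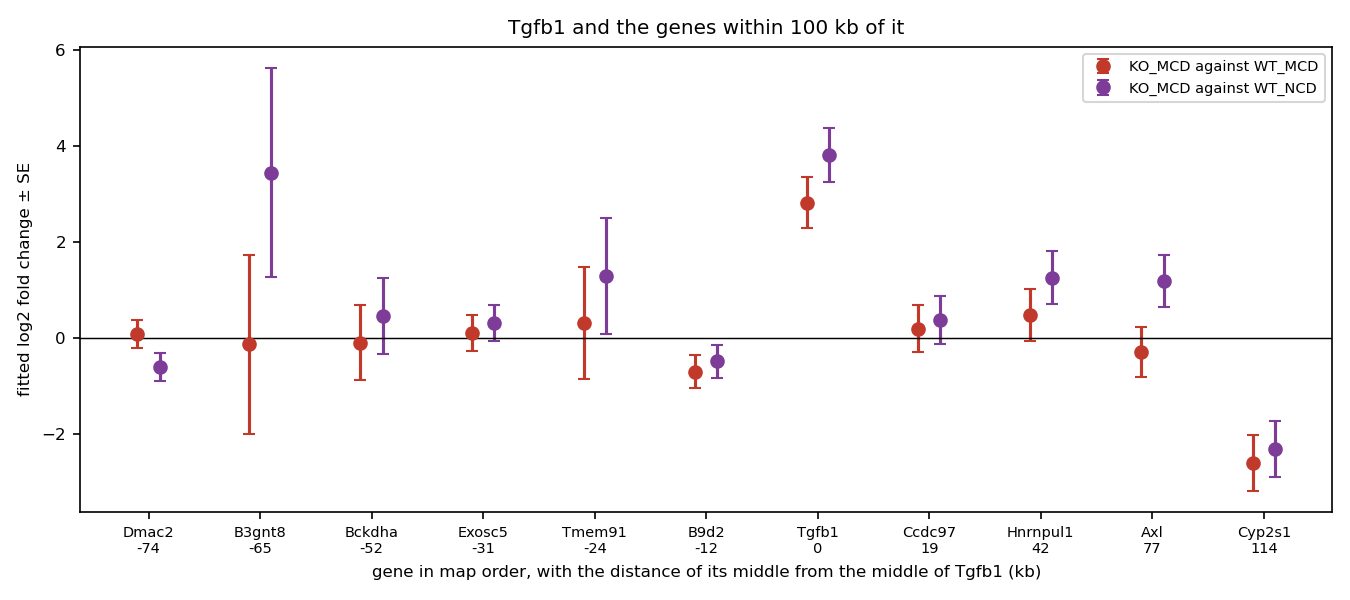
Fitted log2 fold change with its SE (vertical axis) of Tgfb1 and the 10 counted genes within 100 kb, in map order, for KO_MCD against WT_MCD and KO_MCD against WT_NCD. Tgfb1 is at 2.82 and 3.81, and Cyp2s1 at the right end is at -2.59 and -2.30.

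The genes whose pattern over the 7 libraries was nearest to that of Tgfb1 were sought among 9269 other protein-coding genes that averaged 5 CPM or more, by the root mean square difference of centred log2 CPM. The 5 nearest were Btbd8 (0.76), Chpt1 (0.81), Fcmr (0.84), Ly6d (0.85) and Mx1 (0.87). Chpt1 encodes an enzyme of the last step of phosphatidylcholine synthesis, Fcmr a receptor for IgM, Ly6d a surface protein of B lineage cells, and Mx1 an interferon-induced GTPase. Fcmr had 224, 179 and 96.9 CPM in KO_MCD and 26.9 and 73.1 CPM in WT_MCD, against 20.9 and 14.5 CPM in WT_NCD, and Chpt1 had 13.9, 12.2 and 10.6 CPM in KO_MCD and 2.56 and 7.30 CPM in WT_MCD, against 1.11 and 2.28 CPM in WT_NCD. All 5 had their 3 knockout libraries above both WT_MCD libraries. This follows largely from choosing them by nearness to Tgfb1 over the same 7 libraries. The other members at that level lay farther off, from 1.46 for Tgfbr2 to 1.96 for Smad4, and the distance of a typical gene is not given here.

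Genes that hold and release latent TGF-beta formed the first of 6 further lists of the pathway. Of 14 genes 8 were tested, and 0 passed the edgeR threshold over all genes in any comparison. DESeq2 called 1, the metalloprotease gene Mmp9 in WT_MCD against WT_NCD (adjusted p = 0.0474), which is named here after its values were seen. In KO_MCD against WT_MCD 3 were higher and 5 lower, with a median log2 fold change of -0.088, beside -0.032 over all genes tested. The latent TGF-beta binding protein genes Ltbp1 and Ltbp2 were at 0 in all 7 libraries, and so was Fbn1. Lrrc32, which encodes GARP, the protein that holds latent TGF-beta on the Treg surface, had 118, 120.5 and 43.0 CPM in KO_MCD and 85.5 and 44.4 CPM in WT_MCD, against 176 and 99.4 CPM in WT_NCD. Both control diet libraries were above both WT_MCD libraries, and the knockout overlapped with each. Nrros, which does the same in myeloid cells, had 487, 873 and 562 CPM in KO_MCD and 342 and 1050.2 CPM in WT_MCD, against 379.8 and 247 CPM in WT_NCD, highest in the library with the most macrophage RNA. Itgav, the integrin subunit that helps release the ligand, had 128, 109.6 and 96.7 CPM in KO_MCD and 178 and 89.3 CPM in WT_MCD, against 68.1 and 46.6 CPM in WT_NCD. All 5 libraries of the deficient diet were above both of the control diet, as for Tgfbr2, with a log2 fold change of 1.22 (SE 0.41) in WT_MCD against WT_NCD and 0.96 (SE 0.38) in KO_MCD against WT_NCD (edgeR adjusted p = 0.777 and 0.542).

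Among 11 other receptors of the family 10 were tested and 0 passed the edgeR threshold in any comparison, while DESeq2 called 1, Nrp1 in KO_MCD against WT_NCD. In KO_MCD against WT_MCD 4 were higher and 6 lower (median log2 fold change -0.73), and in WT_MCD against WT_NCD 7 were higher and 3 lower (median 0.92, beside 0.045 over all genes tested). These medians rest partly on scarce genes, such as Acvr2b, Bmpr1a and Acvr2a, which averaged 0.393, 0.902 and 3.76 CPM over all libraries. Of the 3 most abundant receptors, Nrp1 and Bmpr2 were fitted lower in WT_MCD than in WT_NCD, and Bambi higher. Nrp1, a coreceptor for TGF-beta and a surface marker of thymus-derived Treg, had 253, 185 and 174 CPM in KO_MCD and 251 and 225 CPM in WT_MCD, against 385 and 503 CPM in WT_NCD. All libraries of the deficient diet were below both of the control diet, with a log2 fold change of -0.90 (SE 0.31, edgeR adjusted p = 0.779) in WT_MCD against WT_NCD and -1.12 (SE 0.28, edgeR adjusted p = 0.349, DESeq2 adjusted p = 0.0167) in KO_MCD against WT_NCD. T cell markers lay in the same direction. Of 10 pan T cell markers 9 were fitted lower in WT_MCD than in WT_NCD (median log2 fold change -0.56) and 10 lower in KO_MCD than in WT_NCD (median -0.73). Their summed level was 4963, 5786 and 6426 CPM in KO_MCD and 8419 and 4293 CPM in WT_MCD, against 7252 and 10658 CPM in WT_NCD, and their part in the Nrp1 level was not tested. The decoy receptor Bambi had 20.8 to 32.9 CPM in KO_MCD and 20.3 and 20.8 CPM in WT_MCD, against 15.5 and 11.1 CPM in WT_NCD, and the BMP receptor Bmpr2 had 21.5 to 35.3 CPM in KO_MCD and 10.7 and 20.1 CPM in WT_MCD, against 37.7 and 11.1 CPM in WT_NCD. Of 4 other SMADs 3 were tested and 0 passed by edgeR or DESeq2. Smad5, which serves the BMP branch, was the one counted well, with 49.3, 49.0 and 19.5 CPM in KO_MCD and 41.4 and 30.9 CPM in WT_MCD, against 35.4 and 55.3 CPM in WT_NCD. Smad1 averaged 0.995 ± 1.10 CPM in KO_MCD (SD, n = 3), Smad6 had no reads there, and Smad9 had none in any library.

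All 14 regulators of receptors and SMADs were tested and 0 passed by edgeR or DESeq2, with 5 higher and 9 lower in KO_MCD against WT_MCD (median log2 fold change -0.28) and 10 higher and 4 lower in WT_MCD against WT_NCD (median 0.50). Fkbp1a, which keeps the type I receptor inactive, had 166, 154 and 229 CPM in KO_MCD and 267 and 355 CPM in WT_MCD, against 179 and 202 CPM in WT_NCD. It was lower in every knockout library than in both WT_MCD libraries, with a log2 fold change of -0.77 (SE 0.29, edgeR adjusted p = 1). Tgif1, a corepressor of SMADs, had 479, 534 and 410.3 CPM in KO_MCD and 493 and 326 CPM in WT_MCD, against 708 and 205 CPM in WT_NCD, with the WT_NCD pair wider apart than any other group. The deubiquitinase Usp4 had 179 to 191 CPM in KO_MCD and 206 and 215 CPM in WT_MCD, against 135 and 157 CPM in WT_NCD. All 8 SMAD partners in the nucleus were tested and 0 passed by edgeR or DESeq2, 2 higher and 6 lower in KO_MCD against WT_MCD (median -0.20). Ncor1, a corepressor, had 135, 131 and 100.2 CPM in KO_MCD and 231 and 82.8 CPM in WT_MCD, against 211 and 218 CPM in WT_NCD. Hdac1 and the acetyltransferase gene Crebbp averaged 200.1 ± 23.4 and 110.1 ± 14.5 CPM in KO_MCD (SD, n = 3). In WT_MCD they averaged 219 ± 58.8 and 132 ± 54.6 CPM, and in WT_NCD 210.3 ± 25.8 and 148 ± 15.7 CPM (SD, n = 2 each).

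Genes known to respond to TGF-beta gave 10 tested of 11, with 0 past the edgeR threshold in any comparison, while DESeq2 called 1, Gpr15, in both knockout comparisons. In KO_MCD against WT_MCD 3 were higher and 7 lower, with a median log2 fold change of -0.34. Itgae, the CD103 integrin that TGF-beta induces in T cells, had 267, 199.8 and 282 CPM in KO_MCD and 393 and 167 CPM in WT_MCD, against 310.4 and 287 CPM in WT_NCD. Its knockout libraries lay within the WT_MCD range, and the log2 fold change was -0.17 (SE 0.38). Id2 and Id3 encode inhibitors of helix-loop-helix factors, and both overlapped between KO_MCD and WT_MCD, with a log2 fold change of 0.20 (SE 0.56) for Id2 and 0.32 (SE 0.90) for Id3. Id2 had 1409, 1271 and 1273 CPM in KO_MCD and 1277 and 1013 CPM in WT_MCD, against 1044 and 217 CPM in WT_NCD, so that all 3 knockout libraries were above both WT_NCD libraries, at 1.06 (SE 0.58) on the log2 scale (edgeR adjusted p = 0.61). Gpr15, a homing receptor named here after its values were seen, had 12.3, 17.9 and 21.2 CPM in KO_MCD and 114 and 59.6 CPM in WT_MCD, against 86.3 and 209.5 CPM in WT_NCD. All knockout libraries were below the wild type ones, with a log2 fold change of -2.34 (SE 0.49, edgeR adjusted p = 1, DESeq2 adjusted p = 0.00747) in KO_MCD against WT_MCD and -3.11 (SE 0.50, edgeR adjusted p = 0.203, DESeq2 adjusted p = 2.94e-06) in KO_MCD against WT_NCD.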

How the data were processed

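The authors deposited raw counts per Ensembl gene ID, whole numbers in 1 column per library, all 7 matched to a sample by title. The submitters' processing notes name HISAT2 2.1.0 and the build GRCm38, and the sources used here do not give how reads were assigned to genes, with which annotation or strand setting. Symbols, positions and exon lengths came from a GENCODE annotation of GRCm38, which named 53360 of 53465 IDs. In R 4.3.3, edgeR 4.0.16 fitted the counts of all 7 libraries with a coefficient per group (TMM factors, glmQLFit, glmQLFTest, prior count 0.125). The filterByExpr rule, at a minimum of 10 counts, kept 14784 genes, over which p-values were adjusted (Benjamini-Hochberg). The SE of a log2 fold change is its size divided by the square root of its F statistic. Libraries of a group varied by 91.3% (coefficient of variation at the common dispersion of 0.833). No pair within a group was alike within counting error (chi-square over degrees of freedom 88.7 to 320.1). DESeq2 1.42.0, limma 3.58.1 voom, other scalings and filters, the replicate number as a block, the compared groups alone and each library left out were alternatives. A floor of 3 counts was used for zeros. The members and lists were chosen with earlier results of these data known. Besides all members, the 3 most abundant genes of each list, the genes within 100 kb of Tgfb1, the 5 nearest in pattern, and Foxp3, Nt5e and Lyz2 were named by rule.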

Additional observations from a re-analysis of the deposited data

How the results depend on the processing

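The count of genes called was 0 in every comparison under TMM, RLE and upper quartile scaling, limma voom, a minimum mean of 1 CPM, the compared groups alone and each library left out. DESeq2 called 50 genes in KO_MCD against WT_MCD, 314 in WT_MCD against WT_NCD and 562 in KO_MCD against WT_NCD, and edgeR without a low count filter 1, 54 and 140. Tgfb1 was among the DESeq2 calls in both knockout comparisons and among those without a filter in KO_MCD against WT_NCD, and no other member was called under any alternative. No strong shared deviation by replicate number was seen, with same-numbered libraries correlating between -0.102 and 0.030. In a group of 2 libraries the deviations mirror each other, so these values do not show that the libraries are unpaired. The replicate block left the count at 0, as did a crossed block of the wild type groups, added after the data were seen. Since the count was 0 without a block, these fits do not decide it either. Of 210 fold changes of members with a library left out 25 turned sign. The 210 include fits that left out a library of the group outside the comparison, which hardly moves the fold change. For Ski in KO_MCD against WT_MCD it stayed at -0.57 without either WT_NCD library. Every turn of sign came from leaving out a library of a compared group, so the share over 210 is low for that reason. Of 250 fold changes under other settings 7 turned sign. These 7 lay close to 0. In Smad2 they were -0.0094 (KO_MCD against WT_MCD) and 0.022 (WT_MCD against WT_NCD) with voom, -0.027 (KO_MCD against WT_NCD) with upper quartile scaling, and 0.014 and 0.031 (WT_MCD against WT_NCD) with the replicate block and the crossed block. In Smad7 they were 0.12 with voom and 0.15 with the replicate block (KO_MCD against WT_MCD).

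Leave-one-out ranges that crossed 0 were, for KO_MCD against WT_MCD, -1.14 to 0.43 for Ski, -0.34 to 0.66 for Skil, -0.12 to 0.25 for Smad2, -0.63 to 1.01 for Smad7, -0.65 to 0.34 for Tgfbr1 and -0.13 to 0.13 for Tgfbr2. For WT_MCD against WT_NCD they were -0.74 to 0.96 for Ski, -0.18 to 0.92 for Skil, -0.33 to 0.41 for Smad2, -1.24 to 0.71 for Smad7 and -7.35 to 8.84 for Tgfb3, whose ends are fits to a group without reads and depend on the prior count. For KO_MCD against WT_NCD they were -0.82 to 0.38 for Ski, -0.30 to 0.44 for Smad2, -0.19 to 0.98 for Smad3 and -0.81 to 0.67 for Smad7. Tgfb1, Tgfbr2 against the control diet, and Smad4 kept their sign throughout, and so did every other fold change of a member outside the ranges just given. Some of these lay within 1 SE of 0, such as Tgfb3 in KO_MCD against WT_MCD at 0.99 (SE 2.37). By the longest transcript in place of all exons Tgfb1 moved from 9th to 8th of 10 in mean level per kilobase over all 7 libraries. Smad4 moved from 8th to 9th, and the receptors changed places. In KO_MCD alone Tgfb1 moved from 6.95 to 13.6 RPKM, above Ski at 10.4 and Smad2 at 7.89 RPKM. Its place among the SMADs in KO_MCD thus holds for exon length only. The cause of the fold changes was not tested. With 2 or 3 libraries a group, a fold change within about 1 SE of 0 says little about whether a gene differs.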
